A study of Mus musculus with 6 samples.

Results

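The spots described here carry the transcripts of cortical layer 2/3, the upper pyramidal cell layers of the neocortex, in Visium spatial RNA sequencing of coronal mouse brain sections. Each Visium spot collects RNA from several neighbouring cells at once, and each captured molecule is counted through a unique molecular identifier (UMI). In each section every spot with at least 500 UMIs was scored as the sum of ln(1 + UMIs per 10000) over 4 genes, Cux2, Rasgrf2, Lamp5 and Stard8, and the 100 highest-scoring spots were kept. This gave 600 layer 2/3 spots of 16741 spots in all. The sections came from frozen brains of C57BL/6J males, a common inbred strain for which the labels give no transgene or treatment, at 6 months (young), 18 months (middle) and 21 months (old), 2 sections per age and each 16 µm thick. Since the labels count 2 males for each age, the sections are treated as coming from separate mice. Young 1, young 2, middle 1 and old 1 shared slide 1, whereas middle 2 and old 2 lay on slide 2, so age and slide are partly confounded and no young section lies on slide 2.

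Layer 2/3 pyramidal cells are glutamatergic neurons that send most of their axons to other cortical areas, within the hemisphere and across the corpus callosum. Their identity is set in part by the transcription factors Cux1, Cux2 and Pou3f2, and they are among the cells through which cortical areas exchange information. Above them lie layer 1, which holds few neurons, and the pia, so that spots near the surface can also take in meningeal cells.

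The 4 rule genes have different roles. Cux2 encodes a homeodomain transcription factor of upper-layer neurons, Rasgrf2 a guanine nucleotide exchange factor for Ras, Lamp5 a lysosome-associated membrane protein of neurons that also marks a class of interneurons, and Stard8 a GTPase-activating protein. Their summed levels in the layer 2/3 spots, in UMIs per 1000000 UMIs of the summed spots (CPM), were 97.0 to 119 for Cux2, 288 to 380 for Rasgrf2, 635 to 828 for Lamp5 and 58.1 to 70.5 for Stard8 over the 6 sections. In all other spots the same genes stood at 21.6 to 32.5, 72.4 to 79.3, 112 to 147 and 9.88 to 11.2 CPM. These genes chose the spots, so their excess is a description and was given no test.

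The score fell without a break across the limit of 100 spots. The last spot kept and the first left out scored 4.18 and 4.17 in young 1, 4.44 and 4.43 in young 2, 4.21 and 4.21 in middle 1, 4.16 and 4.15 in middle 2, 4.11 and 4.10 in old 1, and 4.08 and 4.08 in old 2. Between 24 and 35 spots per section lay less than 0.25 below the limit. All 4 rule genes had a UMI in 88 to 100 of the 100 kept spots, against 5.37% to 9.80% of the other spots.

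**Figure D1:**
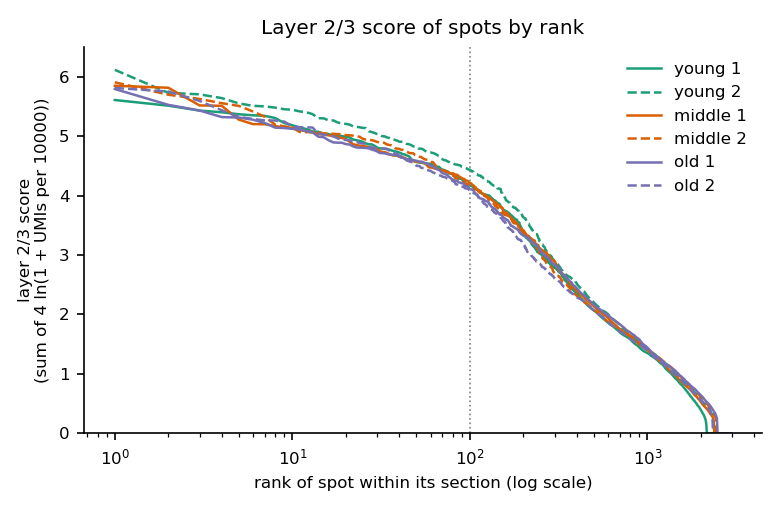
Layer 2/3 score (sum over 4 genes of ln(1 + UMIs per 10000), vertical axis) of spots against their rank within the section (horizontal axis, log scale), with 1 line per section, coloured by age, and a dotted line at rank 100. The scores fall smoothly through the limit, from between 5.61 and 6.12 at the top to between 4.08 and 4.44 at rank 100.

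The kept spots were deeper than the rest. Their median was 45511 and 48188 UMIs in young 1 and 2, 46751.5 and 37653.5 in middle 1 and 2, and 42973.5 and 34747.5 in old 1 and 2, while the other spots had medians of 19885 to 29247. The mean of the section medians was 46850 ± 1893 (SD, n = 2) in young and 38861 ± 5817 in old layer 2/3 spots, and the old sections lay below both young ones. In all other spots the mean of the section medians was lower in old sections as well, at 27443 ± 2551 in young and 20654 ± 1087 in old. The lowest medians of layer 2/3 spots were those of middle 2 and old 2, the sections on slide 2. The cause was not tested. Fewer cells, less RNA per cell, slide and differences of capture or sequencing between sections cannot be told apart here. The sums over 100 spots held 3414090 to 4780643 UMIs, of which 13.2% to 16.8% were mitochondrially encoded, against 57524848 to 72777291 UMIs in the sums of all other spots. When every spot was first thinned to 5000 UMIs, the 100 highest scores shared 50 to 60 spots with the set described here. Sections shared 2082 to 2825 spot barcodes, since each slide area uses the same barcode set, and layer 2/3 spots shared 0 to 49 barcodes between sections. Counts of replicate sections differed beyond counting noise in each age group, with a chi-square per degree of freedom of 4.86 in young, 3.48 in middle and 3.69 in old layer 2/3 spots.

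The layer 2/3 label was set beside 16 genes of upper cortical layers that the rule did not use. Of these, 9 were higher in the layer 2/3 spots than in the other spots of the same section in all 6 sections. The share of all genes with that pattern is not given here, so the count is a description only. Nectin3, a cell adhesion molecule, stood at 34.9 to 47.0 CPM against 10.5 to 14.4 in other spots, and Inhba, the activin subunit beta A, at 11.4 to 17.3 against 4.22 to 5.74. Calb1, the calcium buffer calbindin, stood at 235 to 306 against 113 to 141 CPM, and the transcription factor Pou3f2 at 25.8 to 37.7 against 10.6 to 14.0. Trpc6, Lhx2, Cux1, Lmo4 and Plxnd1 made up the rest of the 9. Mdga1 and Adamts2 went the other way in all 6 sections, with mean log2 ratios of -0.84 and -1.55. Wfs1, Otof, Matn2, Rrad and Ccdc80 were on neither side in every section, and Wfs1, at 62.4 to 112 CPM in layer 2/3 spots and 70.1 to 83.3 in other spots, is also known from the hippocampus. Over the 16 genes the median log2 ratio of layer 2/3 to other spots was 0.77 as a mean over sections.

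A second comparison used spots chosen by layer 5 and layer 6 genes, the 100 highest of each section for Etv1, Parm1, Fezf2 and Deptor and the 100 highest for Rprm, Hs3st4, Syt6 and Foxp2, which gave 198 to 200 spots per section with none shared with layer 2/3. Against these, 11 of the 16 genes were higher in all 6 sections and 1, Adamts2, was lower, again a count without the share over all genes. Otof, a synaptic vesicle fusion protein, stood at 4.88 to 10.2 CPM in layer 2/3 spots and 0.669 to 2.66 in the layer 5 and 6 score spots, and Wfs1 at 62.4 to 112 against 21.8 to 35.6. These comparison spots were not all cortical. They held 0.156 to 950 CPM of Pmch, a neuropeptide of the lateral hypothalamus, and 15 to 35 of them per section had a share of Slc17a7, the vesicular glutamate transporter of cortical excitatory neurons, below the section's median.

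**Figure D2:**
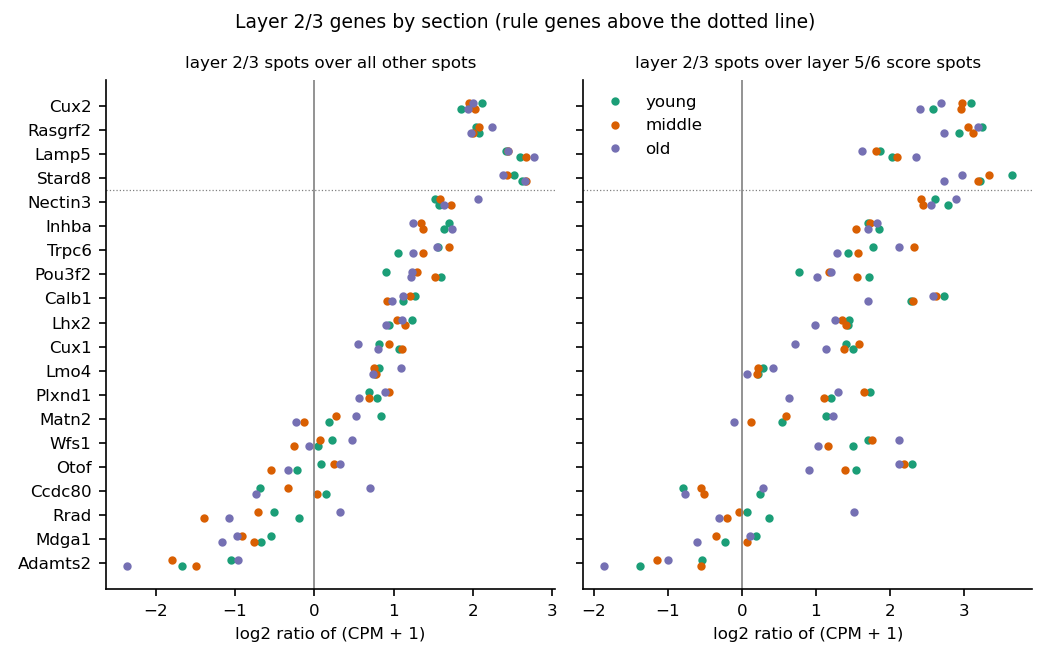
Log2 ratio of (CPM + 1) in layer 2/3 spots over all other spots (left) and over the spots chosen by layer 5 and layer 6 genes (right), with 1 point per section coloured by age, for the 4 rule genes above the dotted line and 16 layer 2/3 genes outside the rule below it. The points of 9 of the 16 genes lie right of 0 in all sections on the left and those of 11 on the right, while Mdga1 and Adamts2 lie left of 0 on the left.

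Markers of other regions, except layer 4, were lower in the layer 2/3 spots than in the other spots. The 8 layer 5 genes summed to 189 to 289 CPM against 1548 to 2138 in other spots, and the 8 layer 6 genes to 58.4 to 72.6 against 228 to 246. The 6 thalamic genes summed to 31.9 to 44.1 CPM against 235 to 548. Piriform, claustrum and amygdala genes differed less, at 348 to 382 CPM against 464 to 517. Striatal genes summed to 215 to 235 CPM against 277 to 536, and hippocampal genes to 75.7 to 112 against 147 to 243. Layer 4 genes were not lower, with sums of 71.5 to 134 CPM against 83.8 to 95.5, old 1 the lowest and old 2 the highest. Within each section they lay above the other spots except in old 1 (71.5 against 83.8). They also lay above the layer 5 and 6 score spots (52.0 to 69.5) in every section. Myelin genes summed to 837 to 1567 CPM against 7349 to 8695, astrocyte genes to 3784 to 4025 against 3949 to 4188, and interneuron genes to 1414 to 1719 against 1422 to 1683. Genes of layer 1 and the meninges summed to 309 to 535 CPM against 947 to 1520, highest in the old sections. Of the 100 highest-scoring meningeal spots of each section, 1 and 0 in young 1 and 2, 2 and 1 in middle 1 and 2, and 3 and 2 in old 1 and 2 were also layer 2/3 spots.

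Among 7099 genes that reached 20 CPM in the layer 2/3 or the other spots in every section, 125 had a mean log2 ratio of at least 1 and 247 of at most -1. The largest ratio was that of Gm765, a gene known by its model name, with 29.0 to 68.3 CPM in layer 2/3 spots and 1.54 to 2.47 in other spots (mean log2 ratio 3.79 ± 0.46, SD over 6 sections). After it, with the rule genes among them, came Igfn1 (2.30), the netrin Ntn5 (2.25), Vip (2.13), Ddit4l (2.05), the ligand Wnt10a (1.97), Pdzrn3 (1.94), Tmem215 (1.92), Igfbp6 (1.80), Evc2 (1.77) and the Wnt antagonist Frzb (1.73). Vip encodes the vasoactive intestinal peptide of a class of interneurons, and stood at 109 to 163 CPM against 28.3 to 35.0. The lowest ratios belonged to Ttr (-4.86), the transthyretin of choroid plexus, followed by Baiap3, Prkcd, Zic1, Tcf7l2, Foxp2, Pcp4, Ecrg4, Nnat and Plekhg1 (-4.07 to -3.23). Prkcd and Tcf7l2 are thalamic markers, and Foxp2 and Pcp4 mark deep cortical layers among other regions. These ratios are descriptions of spots that were chosen by their transcripts.

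With age, few genes of the layer 2/3 spots passed a test. Between old and young sections 10 of 12579 genes tested were called, 6 higher (0.0477%) and 4 lower (0.0318%) in old, at a Benjamini-Hochberg adjusted p under 0.05 in edgeR's quasi-likelihood test (0.0795% of the genes tested). At an unadjusted p under 0.05 there were 841 genes (6.69%), 385 higher and 456 lower. The median log2 fold change over all genes tested was 0.0022.

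AC149090.1, a protein-coding gene annotated under its clone name on an unplaced scaffold of GRCm38, had the smallest p. It stood at 153 and 158 CPM in young 1 and 2, 355 and 405 in middle 1 and 2, and 373 and 382 in old 1 and 2. Every middle and old section lay more than 2 times above both young sections. The log2 fold change of old over young was 1.25 ± 0.09 (SE, n = 2 sections per age; adjusted p = 2.62e-09, edgeR quasi-likelihood), and the call held in each of the 20 alternatives run. The same gene stood at 115 and 152 CPM in the other spots of the young sections and at 252 to 274 in those of the older ones. Reads of a gene on an unplaced scaffold can be split with near-identical copies elsewhere, so its level is uncertain.

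Nfkb2, which encodes the p100 and p52 subunit of the transcription factor NF-kB (GRCm38 chr19:46304320-46312385), stood at 14.3 and 18.0 CPM in young, 24.3 and 32.0 in middle and 29.5 and 40.7 in old sections. The old sections lay above the young ones, with a log2 fold change of 1.08 ± 0.19 (adjusted p = 0.0240, edgeR quasi-likelihood). Pcdhb8, a clustered protocadherin, stood at 4.32 and 3.77, 10.6 and 8.40, and 10.7 and 14.9 CPM in the same order, a log2 fold change of 1.61 ± 0.29 (adjusted p = 0.0240). It belongs to a family of similar genes whose reads the counting could split. Nnat, neuronatin, an imprinted gene for a membrane proteolipid (chr2:157560078-157562522), stood at 14.5 and 20.3, 22.1 and 23.9, and 40.0 and 29.0 CPM, a log2 fold change of 0.97 ± 0.18 (adjusted p = 0.0240), while the other spots held 205 to 289 CPM.

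The other 2 genes that rose are known from the meninges and vessel walls. Igf2, an insulin-like growth factor made by pial and choroid cells (chr7:142650766-142666816), stood at 3.03 and 2.93 CPM in young, 6.18 and 4.88 in middle and 9.20 and 10.8 in old sections (log2 fold change 1.71 ± 0.32, adjusted p = 0.0240, edgeR quasi-likelihood). Mgp, the matrix Gla protein (chr6:136872435-136875823), stood at 17.9 and 11.9, 26.9 and 27.9, and 27.1 and 31.6 CPM (0.94 ± 0.19, adjusted p = 0.0407). In old 1, 3 layer 2/3 spots that were also among the meningeal spots held 19 of 38 Igf2 UMIs and 39 of 112 Mgp UMIs, and in old 2 the 2 such spots held 13 of 37 and 9 of 108. Without such spots in any section the log2 fold changes were 1.03 for Igf2 and 0.61 for Mgp and neither passed (adjusted p = 0.617 and 0.692). Of the 10 calls 4 held without them. Tmem252, Nnat, Rims1 and Ide then each had an adjusted p of 0.0512, with log2 fold changes of -2.61, 0.91, -0.58 and -0.88 that had barely moved.

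Of the 4 genes that fell, Tmem252, a small transmembrane protein gene (chr19:24674008-24682233), stood at 5.40 and 6.90 CPM in young, 0.663 and 1.36 in middle and 1.21 and 0.586 in old sections. The older sections rest on 2 to 5 UMIs each, and the log2 fold change was -2.72 ± 0.50 (adjusted p = 0.0240, edgeR quasi-likelihood). Tmem252 passed the low-count filter only through the young sections, with 25 and 33 UMIs. It could therefore be called only as lower in old, and the call is no separate support for a fall. Aldh1a1, a retinaldehyde dehydrogenase (chr19:20492715-20643465), stood at 38.7 and 40.6, 35.3 and 36.3, and 18.2 and 26.7 CPM. The middle sections lay slightly below the young ones and the old sections further below. The log2 fold change of old over young was -0.87 ± 0.16 (adjusted p = 0.0240, edgeR quasi-likelihood).

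Rims1, a scaffold of the presynaptic active zone (chr1:22286251-22805994), stood at 86.0 and 78.4 CPM in young, 68.7 and 71.8 in middle and 53.0 and 59.8 in old sections, with a log2 fold change of -0.58 ± 0.11 (adjusted p = 0.0407, edgeR quasi-likelihood). Its 3 age groups did not overlap. Ide, the insulin-degrading enzyme, which also cleaves amyloid beta (chr19:37268743-37337852), stood at 46.7 and 44.8, 44.0 and 28.7, and 24.0 and 26.4 CPM (-0.89 ± 0.17, adjusted p = 0.0429). Middle 1 lay with the young sections and middle 2 with the old ones, and the other spots of the same sections showed the same order, at 45.0 CPM in middle 1 and 30.4 in middle 2.

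**Figure D3:**
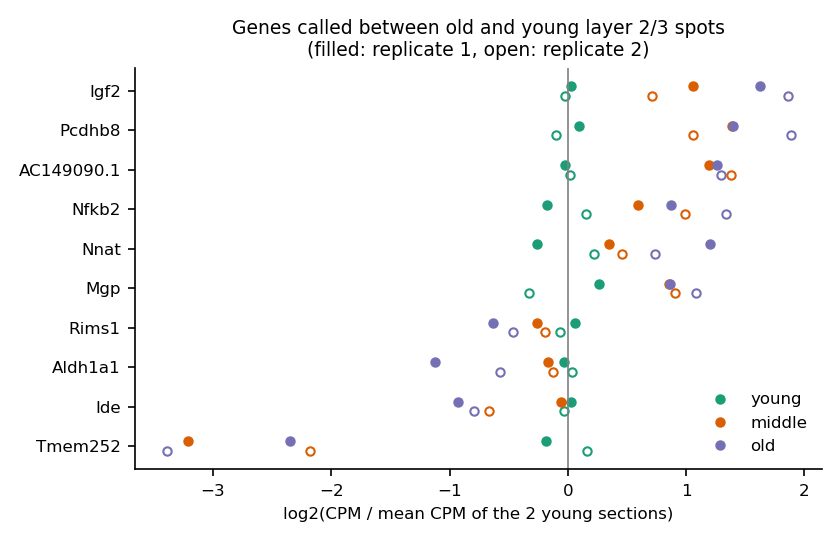
Log2 of each section's CPM over the mean of the 2 young sections (horizontal axis) for the 10 genes called between old and young layer 2/3 spots, with 1 point per section, coloured by age, filled for replicate 1 and open for replicate 2. Old and young points do not overlap for any of the 10 genes, and the middle points of Ide lie apart from each other. Genes called by a small p tend to show no overlap. The share of all genes tested with that pattern is not given here, so it is a description only.

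Within slide 1 alone, which holds both young sections, middle 1 and old 1, 55 genes were called between old and young, among them 7 of the 10. The other 3 had the same direction there, with adjusted p = 0.0518 for Nfkb2, 0.0505 for Pcdhb8 and 0.0969 for Mgp. The lone old section is then assumed to vary like the young pair, and slide 2 gives no value since it has no young section. Without old 2, 48 genes were called and 5 of the 10 held, and without young 1, 3 genes were called and 2 of the 10 held. With 50 spots per section 9 genes were called, 4 of the 10 among them, and DESeq2 called 1, AC149090.1.

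Between middle and young sections 3 genes of 12579 were called (0.0238%), 1 higher (0.00795%) and 2 lower (0.0159%) in middle, and 710 had an unadjusted p under 0.05 (5.64%). These share the young sections with the comparison above. AC149090.1 rose by 1.27 ± 0.09 on the log2 scale (adjusted p = 1.85e-09, edgeR quasi-likelihood), and Tmem252 fell by 2.64 ± 0.48 (adjusted p = 0.0425). Tmem252 entered this test, too, only through the young sections. Tafa1, a secreted chemokine-like protein of brain (chr6:96113154-96657198), stood at 57.9 and 60.7 CPM in young, 36.2 and 32.0 in middle and 41.2 and 41.9 in old sections, with a log2 fold change of -0.81 ± 0.12 (adjusted p = 0.00491). In the other spots it stood at 28.8 and 37.3, 27.4 and 25.3, and 29.0 and 26.5 CPM. On slide 1 alone 5 genes were called, with 2 of these 3 among them and an adjusted p of 0.0873 for Tafa1. Without middle 2, 1 gene was called, and without young 1, old 1 or old 2 there were 10, 15 and 16. Genes next in line by p did not pass. The cold-inducible RNA-binding protein gene Rbm3 stood at 123 and 124 CPM in young and 188 and 160 in middle sections (adjusted p = 0.103), and the co-chaperone gene Dnajb1 at 136 and 152 against 103 and 98.7 (adjusted p = 0.115). Apold1, an endothelial early response gene, stood at 15.6 and 13.8 against 4.64 and 7.32 CPM (adjusted p = 0.0672), Nav3, a neuron navigator, at 56.4 and 59.4 against 41.7 and 33.6 (adjusted p = 0.115), and the nuclear RNA Neat1 at 19.4 and 18.2 against 32.9 and 29.6 (adjusted p = 0.195).

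Between old and middle sections 2 genes were called (0.0159%), 1 higher and 1 lower (0.00795% each), and 491 had an unadjusted p under 0.05 (3.9%). Hba-a2, an alpha globin of red blood cells (chr11:32296489-32297298), stood at 6.70 and 4.60 CPM in young, 3.09 and 1.90 in middle and 11.1 and 20.2 in old sections (log2 fold change of old over middle 2.57 ± 0.37, adjusted p = 0.00587, edgeR quasi-likelihood). A single spot held 60.9% of its UMIs in old 1 and 55.1% in old 2. Ttr stood at 126 and 100, 148 and 201, and 83.3 and 78.5 CPM (-1.11 ± 0.15, adjusted p = 0.0377), while the other spots held 2119 to 4468 CPM. Without the spots shared with the meningeal set the log2 fold changes were 2.34 and -1.14, close to the values above, though neither passed (adjusted p = 0.9995 and 0.0862). On slide 1 alone this comparison sets 1 old section against 1 middle section, with the spread taken from the young pair only, and its 15 calls have no replicate check of their own. Leaving out old 2 gave 57 calls, and leaving out either middle section gave 1. Tmem215, a transmembrane protein gene that was among the 15 of largest ratio to other spots, stood at 50.1 and 58.0 CPM in middle and 32.7 and 40.7 in old sections and did not pass (adjusted p = 0.722), nor did Hif1an (0.722), Rora (0.909), Marcksl1 (0.923) or S100a6 (0.999).

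The upper-layer genes outside the rule showed no call with age. Not all of them marked the layer 2/3 spots, since 9 of the 16 were higher there in all 6 sections and 2 were lower. Of the 16 genes outside the rule 15 were tested and 0 were called in any of the 3 age comparisons by edgeR's quasi-likelihood test, with 1 at an unadjusted p under 0.05 between old and young. Their median log2 fold change of old over young was -0.037, with 6 positive and 9 negative. Calb1 stood at 287 and 306 CPM in young, 262 and 250 in middle and 284 and 235 in old sections (log2 fold change of old over young -0.22, adjusted p = 0.681). The 4 rule genes chose the spots in every section, so their levels across ages are a description only, with Lamp5 at 787 and 828 CPM in young and 635 and 771 in old sections and Cux2 at 97.0 and 119 against 109 and 105.

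The lists of genes of the synapse and of excitability, which do not include the called Rims1, also had 0 calls between old and young. The 17 ionotropic glutamate receptor and scaffold genes had a median log2 fold change of -0.072, the 13 GABA receptor genes -0.028, the 18 presynaptic genes 0.031, the 26 voltage-gated channel genes -0.080 and the 20 genes of calcium signalling and plasticity -0.0068, beside 0.0022 over all genes. At an unadjusted p under 0.05 these lists held 3, 1, 0, 4 and 2 genes. Snap25, a core protein of synaptic vesicle fusion, stood at 4027 and 4341 CPM in young and 3921 and 4324 in old sections, and Gria2, an AMPA receptor subunit, at 556 and 517 against 537 and 484. Of the 22 nuclear genes of oxidative phosphorylation 19 were positive (median 0.065), where 50.5% of all genes tested were positive. Of the 13 mitochondrially encoded genes 12 were negative (median -0.19), and none of either list was called. The mitochondrial share of UMIs in the layer 2/3 sums was 16.8% and 14.0% in young and 13.2% and 14.6% in old sections, and its part in this was not tested.

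Of 16 heat shock and chaperone genes 0 were called between old and young layer 2/3 spots. The fold change was negative for 15 of them (median log2 fold change -0.21), where 50.5% of all genes tested were positive, and 6 of the 16 had an unadjusted p under 0.05, against 6.69% of all genes. Hspa1a stood at 35.9 and 48.7 CPM in young, 29.2 and 26.8 in middle and 28.8 and 24.3 in old sections (-0.69 ± 0.16, adjusted p = 0.0979, edgeR quasi-likelihood), and Hsph1 at 279 and 264, 229 and 235, and 210 and 230 CPM (adjusted p = 0.267). Of 10 tested genes responsive to glucocorticoids or NF-kB, Nfkb2 was called higher and 8 were negative (median -0.37). Nfkbia, the NF-kB inhibitor, had a log2 fold change of -0.79 ± 0.18 (adjusted p = 0.0979), and Sgk1, a glucocorticoid-induced kinase, of -0.46 ± 0.11 (adjusted p = 0.119).

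Microglia genes and genes of glial and immune activation had 0 calls with age in layer 2/3 by edgeR's quasi-likelihood test. The 10 microglia genes had a median log2 fold change of -0.15 in old against young sections, with 1 at an unadjusted p under 0.05, and 18 tested genes of glial and immune activation had a median of 0.033, also with 1. The microglia genes summed to 341 and 397 CPM in young, 360 and 335 in middle and 318 and 368 in old layer 2/3 spots. In all other spots they summed to 431 and 473, 527 and 566, and 584 and 658 CPM. C4b, complement component 4B, made by glia, was low in the layer 2/3 spots but not flat with age. It stood there at 2.38 and 1.46 CPM in young and 3.88 and 7.91 in old sections, the old ones above the young. The other spots held 24.7 and 17.5 CPM in young and 81.6 and 110 in old sections, in the same direction.

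The age change in layer 2/3 was then compared with that in all other spots of the same sections, as an interaction in 1 model of both kinds of spot that blocks on section. Of 16732 genes tested 22 were called (0.131%), in 8 of which the change of old against young was higher in layer 2/3 (0.0478%) and in 14 lower (0.0837%). At an unadjusted p under 0.05 there were 844 (5.04%). The 14 more negative ones include the 3 complement C1q genes and other microglial and astrocytic genes, and the 8 more positive ones include 3 heat shock genes and genes of the meninges. Hspa1b, Hspa1a, C1qb and Sgk1 were called in each of the 20 alternatives run.

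C1qb, a chain of the complement C1q complex that microglia secrete (chr4:136880129-136886187), stood at 54.0 and 57.1 CPM in young, 55.7 and 57.2 in middle and 51.8 and 53.0 in old layer 2/3 spots. In all other spots it stood at 72.4 and 80.3, 91.9 and 109, and 110 and 134 CPM. The 6 layer 2/3 values span few units while the old sections' other spots lie above the young ones, and the difference of the log2 changes was -0.74 ± 0.11 (adjusted p = 1.02e-04, edgeR quasi-likelihood). C1qc differed by -0.75 ± 0.13 (adjusted p = 4.17e-04) and C1qa by -0.63 ± 0.13 (adjusted p = 0.0339).

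Tyrobp, the adaptor of microglial surface receptors (chr7:30413760-30417585), stood at 48.4 and 45.0 CPM in young and 54.3 and 47.2 in old layer 2/3 spots, against 56.6 and 54.6 and 89.4 and 103 in all other spots (difference -0.64 ± 0.12, adjusted p = 0.00460, edgeR quasi-likelihood). Lyz2, a lysozyme of myeloid cells, stood at 5.40 and 6.69 and 5.57 and 8.20 CPM, against 12.6 and 9.56 and 26.7 and 44.2 (-1.48 ± 0.29, adjusted p = 0.00760). For both genes the young and old values overlapped in layer 2/3 and did not in the other spots, and the Lyz2 sums in layer 2/3 rest on 23 to 32 UMIs each. Ctss, Fcer1g and B2m, which act in lysosomal breakdown, Fc receptor signalling and antigen presentation, differed by -0.52, -0.78 and -0.38.

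Gfap, the intermediate filament of astrocytes (chr11:102887336-102900912), stood at 19.9 and 18.6 CPM in young, 18.8 and 17.6 in middle and 21.6 and 21.7 in old layer 2/3 spots. In all other spots it stood at 79.0 and 78.3, 91.9 and 96.2, and 123 and 184 CPM, and the difference was -0.76 ± 0.17 (adjusted p = 0.0256, edgeR quasi-likelihood). Serpina3n, a protease inhibitor of reactive astrocytes, stood at 7.13 and 7.74 and 8.48 and 5.57 CPM in young and old layer 2/3 spots, against 14.3 and 14.4 and 29.3 and 43.5 (-1.36 ± 0.30, adjusted p = 0.0371). Also more negative were Fth1, the ferritin heavy chain (-0.26), Inf2, a formin (-0.54), and Aldh1a1 (-0.64).

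Of 23 tested genes of glial and immune activation, 22 had a negative difference and 6 were called lower (median -0.58). Of the 10 microglia genes all 10 were negative and 4 were called lower (median -0.43). Over all 16732 genes tested 8267 were negative and 14 were called lower (0.0837%), with a median of 0.0033. Trem2, a microglial receptor, did not pass (-0.81, adjusted p = 0.0773). On slide 1 alone 35 genes were called, 11 of the 22 among them; C1qa, C1qb and C1qc held, while Tyrobp, Lyz2, Gfap and Serpina3n had the same sign and adjusted p of 0.261, 0.107, 0.646 and 0.546. Without old 2, 74 genes were called, and 17 of the 22 held. The other spots cover many regions whose share differs between sections, with hypothalamic genes summing to 141 to 1426 CPM, and the part of that in these differences was not tested.

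The pair of inducible heat shock protein 70 genes differed in the other direction. Hspa1a and Hspa1b lie next to each other on the minus strand of chromosome 17 (GRCm38 chr17:34969190-34972156 and chr17:34956436-34959238) and encode near-identical proteins, so the split of reads between them is uncertain. The 250 bases before each start are shown because both genes differed in the same direction; 247 of 250 bases are identical, as given by RefSeq for GRCm38.p6 (chr17:34972157-34972406 for Hspa1a and chr17:34959239-34959488 for Hspa1b, minus strand, 5′ to 3′). Both inverted pairs of the heat shock factor unit were searched, GAANNTTC and TTCNNGAA, each of which reads the same on both strands. Capitals mark the only match to either in each promoter, a GAANNTTC that begins 104 bases before the start.
Hspa1a: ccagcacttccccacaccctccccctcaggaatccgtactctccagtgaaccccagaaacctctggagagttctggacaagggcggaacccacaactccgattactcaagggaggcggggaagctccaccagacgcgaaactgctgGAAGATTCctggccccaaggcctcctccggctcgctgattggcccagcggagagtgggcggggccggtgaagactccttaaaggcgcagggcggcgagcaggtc
Hspa1b: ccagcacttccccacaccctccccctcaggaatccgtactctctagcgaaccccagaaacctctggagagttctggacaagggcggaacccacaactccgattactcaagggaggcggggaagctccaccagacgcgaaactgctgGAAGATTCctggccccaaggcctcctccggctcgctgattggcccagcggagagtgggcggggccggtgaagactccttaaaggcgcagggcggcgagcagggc
One or both motifs occur in 12.8% of 32851 promoters of that table over the same length, so the match is a description only.

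Hspa1b stood at 55.3 and 46.4 CPM in young, 43.1 and 36.1 in middle and 44.3 and 34.3 in old layer 2/3 spots. In all other spots it stood at 53.7 and 50.9, 14.7 and 14.1, and 14.9 and 12 CPM. Young layer 2/3 and other spots overlapped in level, whereas in every middle and old section layer 2/3 lay more than 2 times above the other spots, and the difference of the log2 changes was 1.60 ± 0.14 (adjusted p = 8.16e-13, edgeR quasi-likelihood).

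Hspa1a stood at 35.9 and 48.7, 29.2 and 26.8, and 28.8 and 24.3 CPM in layer 2/3 and at 54.8 and 57.1, 15.2 and 17.0, and 18.0 and 15.0 in other spots, a difference of 1.10 ± 0.16 (adjusted p = 2.24e-05, edgeR quasi-likelihood). Layer 2/3 was below the other spots in both young sections and above them in the other 4. Their co-chaperone Dnajb1 stood at 136 and 152, 103 and 98.7, and 136 and 103 CPM, against 116 and 122, 65.1 and 74.2, and 78.7 and 65.4 in other spots (0.47 ± 0.09, adjusted p = 0.00524). The remaining 13 of the 16 heat shock and chaperone genes were not called, and the abundant Hspa8 differed by 0.018; the list's median was 0.035.

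Sgk1 (chr10:21882184-21999903) stood at 78 and 79.5 CPM in young, 58.5 and 64.3 in middle and 62.7 and 53.3 in old layer 2/3 spots. In other spots it stood at 142 and 181, 59.9 and 78, and 68.8 and 72.0 CPM, a difference of 0.77 ± 0.11 (adjusted p = 1.28e-04, edgeR quasi-likelihood). Layer 2/3 lay below the other spots in all 6 sections, by more in the young ones. Immediate early genes, which neurons induce on activity, were positive in 16 of 18 with a median of 0.20, where 50.6% of all genes tested were positive. Of the 18, 0 were called and 8 had an unadjusted p under 0.05. Against the spots chosen by genes of the deep cortical layers the same list was less one-sided. There 11 of 18 were positive with a median of 0.023, where 52.3% of all genes tested were positive. In that comparison 0 were called and 1 had an unadjusted p under 0.05.

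The other 4 more positive genes are expressed in the meninges. Igf2 differed by 1.82 ± 0.30 (adjusted p = 4.17e-04, edgeR quasi-likelihood), Mgp by 0.94 ± 0.17 (adjusted p = 0.00127), the secreted protein gene Myoc by 2.72 ± 0.48 (adjusted p = 0.00127) and the proteoglycan gene Ogn by 3.08 ± 0.66 (adjusted p = 0.0194). Myoc stood at 1.51 and 0.418 CPM in young and 6.06 and 5.27 in old layer 2/3 spots, and Ogn, with 2 UMIs in each young sum, at 0.432 and 0.418 against 3.39 and 2.93. None of the 4 passed without the layer 2/3 spots shared with the meningeal set (adjusted p = 0.527, 0.500, 0.632 and 0.186), where their differences were 1.13, 0.58, 1.67 and 2.91. The 3 spots so shared in old 1 held 15 of 25 Myoc UMIs and 5 of 14 Ogn UMIs.

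**Figure D4:**
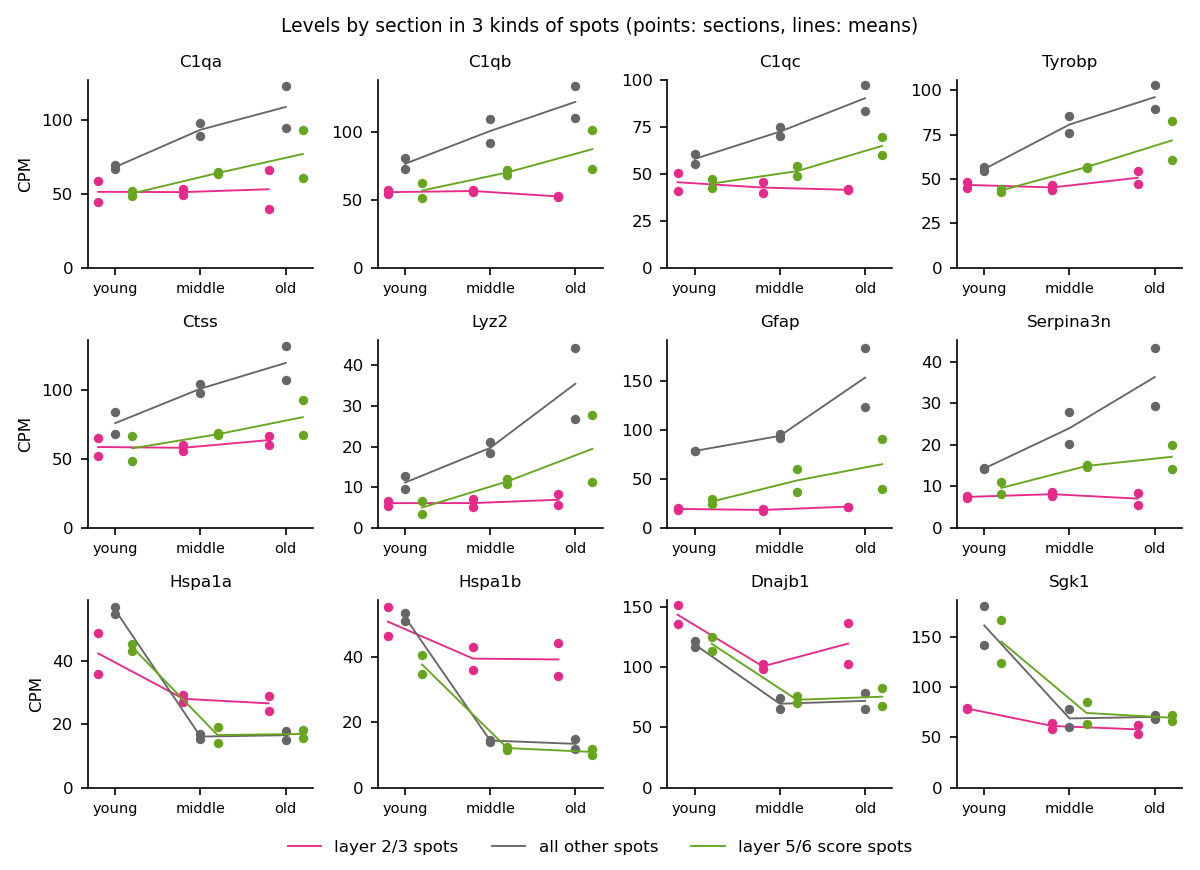
CPM (vertical axes, from 0) by age in layer 2/3 spots, all other spots and the spots chosen by layer 5 and layer 6 genes, for 12 genes, with 1 point per section and lines through the means of 2 sections. C1qb stays at 51.8 to 57.2 CPM and Gfap at 17.6 to 21.7 in layer 2/3 while their other spots reach 134 and 184 in old 2, and Hspa1b stays at 34.3 to 55.3 CPM in layer 2/3 while the other spots of middle and old sections lie at 12 to 14.9.

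Against the spots chosen by layer 5 and layer 6 genes, 6 of 13288 genes were called (0.0452%), 5 more positive (0.0376%) and 1 more negative (0.00753%) in layer 2/3, with 591 at an unadjusted p under 0.05 (4.45%). Hspa1b was again among them. It stood at 40.6 and 34.9 CPM in young, 11.6 and 12.6 in middle and 11.8 and 10.0 in old layer 5 and 6 score spots, and the difference was 1.43 ± 0.18 (adjusted p = 9.10e-05, edgeR quasi-likelihood). Hspa1a (0.74, adjusted p = 0.593) and Sgk1 (0.64, adjusted p = 0.138) did not pass here.

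C1qb stood at 51.0 and 62.5, 68.2 and 72.0, and 72.8 and 102 CPM in the layer 5 and 6 score spots, a difference of -0.66 ± 0.14 that did not pass (adjusted p = 0.127, edgeR quasi-likelihood), and C1qc (-0.64, adjusted p = 0.211) and Lyz2 (-1.72, adjusted p = 0.309) did not pass either. All 10 microglia genes and all 18 tested genes of glial and immune activation had a negative difference (medians -0.41 and -0.34). None was called, and 5 and 7 had an unadjusted p under 0.05. Over all 13288 genes tested 6344 were negative, with a median of 0.010, and 4.45% had an unadjusted p under 0.05. DESeq2 called 0 genes in this comparison, with 32 at an unadjusted p under 0.05.

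The globins Hba-a1, Hba-a2 and Hbb-bs were called with differences of 2.73, 2.60 and 2.45. Hba-a1 and Hba-a2 are near-identical copies whose reads the counting could split. Hbb-bs, a beta globin, stood at 28.7 and 9.62 CPM in young and 22.5 and 47.7 in old layer 2/3 spots, with 77.9% of the old 2 UMIs in 1 spot, and at 62.3 and 14.3 and 12.3 and 11.9 CPM in the layer 5 and 6 score spots. Ptgds, the prostaglandin D synthase of the meninges, stood at 313 and 262 CPM in young and 381 and 481 in old layer 2/3 spots (difference 0.48 ± 0.09, adjusted p = 0.0282, edgeR quasi-likelihood). Without the spots shared with the meningeal set its difference was 0.16 (adjusted p = 0.982), and those of Hba-a2 and Hbb-bs were 1.97 and 2.08 and did not pass either (adjusted p = 0.982 for both), while Hba-a1 passed at 2.30 (adjusted p = 0.0491). Hbb-bs also did not pass without young 1 (adjusted p = 0.329) or without middle 1 or middle 2 (0.0599 and 0.0590), and the other 2 globins did not pass without young 1. Pmch (-6.38 ± 0.65, adjusted p = 7.32e-05) stood at 0 and 5.02 CPM in young and 0.242 and 5.27 in old layer 2/3 spots and at 0.278 and 7.38 and 0.156 and 732 in the comparison spots, so that old and young sections overlap and the value rests on old 2. On slide 1 alone 77 genes were called, 5 of the 6 among them, with Pmch at 1.16. The comparison spots were also chosen only among spots with an Slc17a7 share at or above the section's median. Then 5 genes were called, all 5 more positive and among the 6, so that Pmch was the one lost. In old 2 Pmch stood at 6.02 CPM in these restricted spots, against 732 without the restriction.

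**Figure D5:**
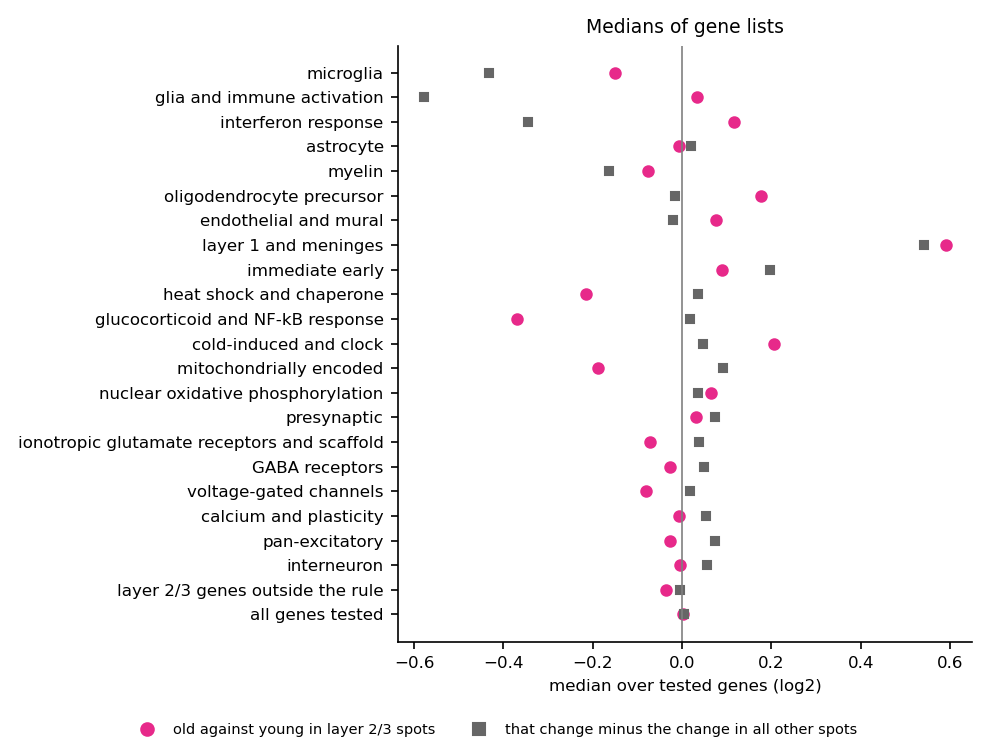
Median over the tested genes of each list (horizontal axis, log2) of the old against young change in layer 2/3 spots (circles) and of that change minus the change in all other spots (squares), with all genes tested in the bottom row. Microglia and glia and immune activation genes have squares at -0.43 and -0.58 with circles at -0.15 and 0.033, and layer 1 and meninges genes have a square at 0.54 and a circle at 0.59.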

How the data were processed

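Each section's deposited matrix lists UMI counts, not normalized, by gene and by spot. The authors produced it with Space Ranger, version 1.3.1 per the file headers and 3.1 per the submitters' processing notes, on mm10 per those notes. Barcodes and gene symbols (other, non-numeric columns) came from deposited files. Spot coordinates and images were not used here. Of 32285 identifiers 32235 matched GENCODE M21 (GRCm38), which gave gene positions. A minimum of 500 UMIs dropped 1 spot in middle 2 and 1 in old 2.

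Sections are the replicates, each entering as the UMI sum over its spots. The quasi-likelihood test of edgeR 4.0.16 in R 4.3.3, with robust fitting, filterByExpr and TMM factors, was run on all 6 sections with age as the only term, and interactions on 12 sums with section as a block. Tests were two-sided, with Benjamini-Hochberg adjustment over all genes tested and calls under 0.05. CPM are untransformed shares of a sum without TMM factors. The pipeline was tested on simulated data. Ratios of layer 2/3 to other spots use a pseudocount of 1 CPM and carry no test, since the rule used that contrast. The labels give 2 males per age without tying each section to an animal, so p-values measure the spread between sections, part of which may be technical.

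The members, gene lists, tests and alternatives were chosen with earlier results of these data known. Genes are named by a rule: for each comparison and direction the 10 called genes of largest change with a mean of at least 10 CPM and no overlap, the 3 of smallest p where fewer than 3 were called, called and abundant list members, and for layer 2/3 against other spots the 15 largest and 10 smallest ratios among genes of at least 20 CPM. Pcdhb8, Tmem252, Igf2, Hba-a2, Ogn, Ctss, B2m, Fth1 and Pmch were also named because they were called, and Trem2, Nfkbia, C4b, Hsph1 and the meningeal UMI shares were chosen after their values were seen. A called gene that enters the counts is not reported here by name.

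The alternatives comprised DESeq2 1.42.0, no low-count filter or at least 10 UMIs in every sum, RLE factors, thinned sums, a block on slide or on replicate number, a fit of the compared ages alone, 50 or 200 spots per section, a score after thinning spots to 5000 UMIs or without Lamp5, members without meningeal overlap, and each section left out. Slide 1 sections alone and the Slc17a7 restriction were chosen after the data had been seen. Replicate numbers did not pair sections: deviations of same-numbered sections correlated at 0.014, 0.0054 and 0.083.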

Additional observations from a re-analysis of the deposited data

Results flagged for a closer look

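The change of old against young sections differed between layer 2/3 spots and all other spots for 22 genes, by the interaction term of edgeR's quasi-likelihood test, and 21 of them are given here. It was more positive in layer 2/3 for Hspa1b (1.60 on the log2 scale), Hspa1a (1.10), Sgk1 (0.77) and Dnajb1 (0.47), and for the meningeal genes Igf2 (1.82), Mgp (0.94), Myoc (2.72) and Ogn (3.08). It was more negative for the microglial and immune genes C1qa (-0.63), C1qb (-0.74), C1qc (-0.75), Tyrobp (-0.64), Lyz2 (-1.48), Ctss (-0.52), Fcer1g (-0.78) and B2m (-0.38). It was also more negative for the astrocyte genes Gfap (-0.76) and Serpina3n (-1.36), and for Fth1 (-0.26), Aldh1a1 (-0.64) and Inf2 (-0.54). Igf2, Mgp, Myoc and Ogn did not pass without the layer 2/3 spots shared with the meningeal set.

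Between layer 2/3 spots and the spots chosen by layer 5 and layer 6 genes, the change differed for 6 genes. These were Hspa1b (1.43), Hba-a1 (2.73), Hba-a2 (2.60), Hbb-bs (2.45), Ptgds (0.48) and the hypothalamic peptide gene Pmch (-6.38). The Pmch value rests on old 2 and was 1.16 without that section. Ptgds, Hba-a2 and Hbb-bs did not pass without the layer 2/3 spots shared with the meningeal set, where Ptgds stood at 0.16. In old 2 a single spot held 77.9% of the Hbb-bs UMIs of layer 2/3.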

How the results depend on the processing

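Counts of calls are given in the order old against young, middle against young, old against middle, difference from all other spots, and difference from the layer 5 and 6 score spots, and were 10, 3, 2, 22 and 6. They were 1, 1, 3, 7 and 0 with DESeq2, 62, 43, 11, 42 and 15 without a filter on low counts, 6, 2, 0, 7 and 1 with at least 10 UMIs in every sum, and 44, 5, 6, 75 and 15 with slide as a block. With the groups compared alone they were 7, 10, 2, 14 and 4, with 50 spots 9, 3, 1, 25 and 5, with 200 spots 25, 11, 0, 19 and 5, and with the thinned score 4, 12, 0, 11 and 3. Without Lamp5 in the score they were 11, 3, 1, 23 and 5, without the meningeal overlap 4, 2, 0, 18 and 3, and on slide 1 alone 55, 5, 15, 35 and 77. Leaving out each section in turn gave 3 to 48, 1 to 16, 1 to 57, 15 to 74 and 2 to 62. RLE factors changed no count. With the replicate block they were 17, 2, 1, 41 and 14, though the numbers do not pair sections. The median log2 ratio of the 16 layer genes, 0.77, was 0.93 as a mean of shares per spot. Signs reversed for Hbb-bs with 50 spots (-0.12) and for Pmch without old 2 and on slide 1 alone (1.16 in both; -6.47 to 1.16 over the sections left out). The cause of these changes was not tested. With 2 sections per age and few UMIs in genes near 5 CPM, small changes were not detectable at this depth.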

Other observations

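In layer 2/3 spots 0 of 12 genes of the circadian clock and of cold response were called between old and young sections. Of these 8 were positive and 4 negative (median log2 fold change 0.21), and 5 were higher and 2 lower at an unadjusted p under 0.05, against 6.69% of all genes tested. Rbm3 had a log2 fold change of 0.45 (adjusted p = 0.0784, edgeR quasi-likelihood). The 11 tested interferon response genes had a median of 0.12 with 0 called and none at an unadjusted p under 0.05. In middle against young sections 10 of these 11 were positive with a median of 0.36, 0 called and 2 at an unadjusted p under 0.05. Over all genes tested 50.2% were positive there and 5.64% had an unadjusted p under 0.05.

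Single layer 2/3 spots varied widely in the non-neuronal genes they held. Microglia genes summed to between 18.9 and 1988 UMIs per 1000000 over the 600 spots, and layer 1 and meningeal genes to between 19.1 and 14502, while the pan-excitatory genes ran from 2368 to 8537. Interneuron genes ran from 328 to 10181. The nuclear RNA Malat1 stood at 888 and 442 CPM in young, 624 and 318 in middle and 484 and 394 in old layer 2/3 spots, so that the young pair and the middle pair each differed more than the old pair.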
